A study of Mus musculus with 24 samples.

Results

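Expression of 8 serotonin receptor genes and of both monoamine oxidase genes was followed in hippocampal and amygdala tissue from mice labelled low or high freezing. The members were taken by name: every probe set whose annotation carried exactly 1 gene symbol among Htr1a, Htr1b, Htr2a, Htr2c, Htr3a, Htr4, Htr5a, Htr7, Maoa and Maob. This gave 16 of 45037 probe sets, covering 9 of the 10 genes; no probe set carried the symbol Htr2a in the annotation used here, and Htr2a was not analysed here. A probe set is a group of short probes on the array that together report 1 transcript region.

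The series holds 24 Affymetrix arrays of total RNA from mice descended from C57BL/6J and A/J, a pair of inbred strains that were crossed, and selected for contextual fear conditioning, in which an animal freezes in a place paired with a shock. The 4 groups of 6 arrays each were hippocampus low freezing, hippocampus high freezing, amygdala low freezing and amygdala high freezing. All groups descend from the same cross, and the labels give no age, sex, generation or treatment that would separate them further. The sources used here do not say whether an array holds RNA of 1 mouse or of several, and all p-values rest on array-to-array spread, which may be technical.

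Serotonin reaches both regions through axons of raphe neurons, and its receptors sit on the cells that these axons contact, so receptor transcripts in a dissected region come largely from local cells. Htr1a, Htr1b and Htr5a encode receptors that couple to inhibitory G proteins, Htr2a and Htr2c receptors that drive phospholipase C, and Htr4 and Htr7 receptors that raise cyclic AMP, while Htr3a encodes a subunit of a ligand-gated ion channel. Monoamine oxidases sit on the outer mitochondrial membrane and break down monoamines; Maoa prefers serotonin and noradrenaline, and Maob prefers phenylethylamine and is typical of astrocytes and of serotonin and histamine neurons.

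Values are deposited intensities in linear units, tested as log2(intensity + 16), a scale that understates the change of dim probe sets. The dimmest 40% of probe sets by mean were left out before testing. Of the member probe sets 13 passed that filter, covering all 9 genes, and 3 did not: the dimmer probe sets of Htr4 (1427654_a_at), Htr5a (1422207_at) and Htr7 (1422235_at). A difference is called where the adjusted p of limma, after Benjamini-Hochberg adjustment over all 27022 probe sets kept, is under 0.05. Every array had a mean of 150.001 units after trimming 2% at each end, array medians lay between 36.9 and 43.6 units, and arrays of 1 group correlated between 0.969 and 0.983 over the probe sets kept.

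**Figure D1:**
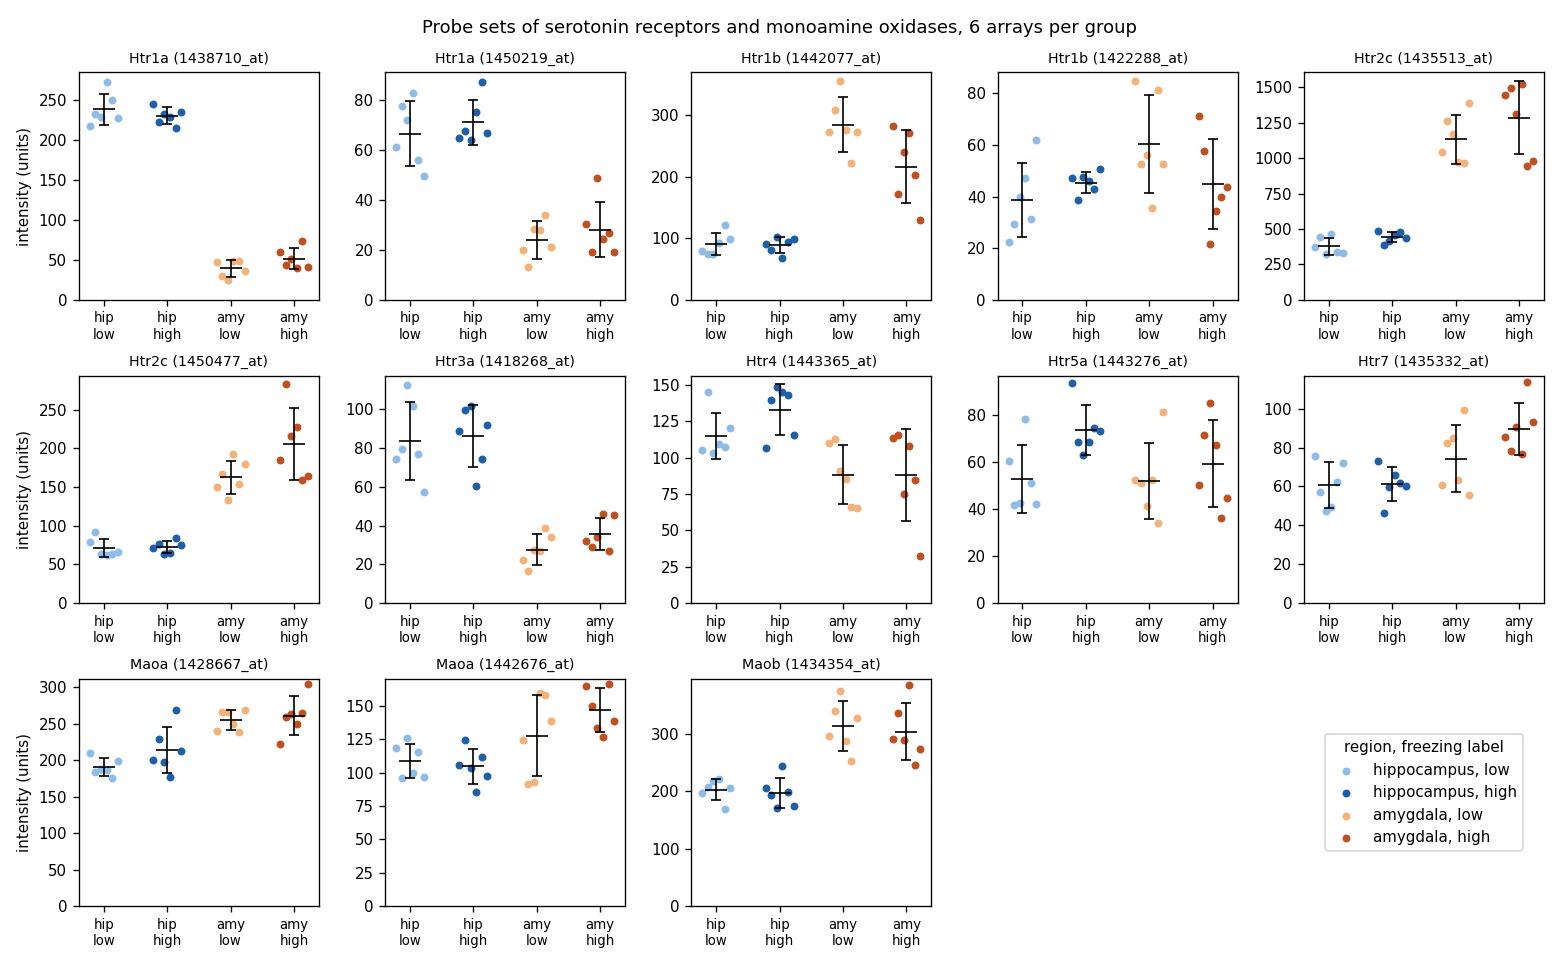
Intensity in linear units of the 13 member probe sets kept, 1 panel each, in the 4 groups (hip, hippocampus; amy, amygdala; low and high, freezing label); points are arrays, bars the mean and SD of 6 arrays, and every axis starts at 0. Both Htr1a probe sets and Htr3a sit lower in all amygdala arrays than in any hippocampal array, and both Htr2c probe sets, Htr1b 1442077_at and Maob sit higher.

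Most of the genes differed between the regions. Htr1a and Htr3a were lower in the amygdala arrays, by 4.16-fold and 2.12-fold, as was Htr4 by 1.38-fold. Htr2c and Htr1b were higher, by 2.85-fold and 2.48-fold at their brightest probe sets, and Htr7, Maoa and Maob were higher by 1.27-, 1.26- and 1.49-fold. In limma 11 of the 13 member probe sets were called, beside 51.4% of all probe sets kept: 7 were higher in the amygdala (27.2% of all) and 4 lower (24.2% of all). At least 2-fold differences were called at 6 of the 13, beside 5.67% of all probe sets; with 64 in place of 16 added before the log the count was 3. The 12 amygdala arrays did not overlap the 12 hippocampal arrays at 7 of the 13, beside 13.2% of all. The median size of the log2 difference was 0.58 over the members and 0.20 over all probe sets kept. In bulk tissue, fewer cells of a type and less RNA per cell cannot be told apart. The balance of all calls turns with the scaling: 7351 were higher and 6535 lower as deposited, against 5624 and 8609 with arrays centred on their medians, while all 13 member differences kept their sign.

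**Figure D2:**
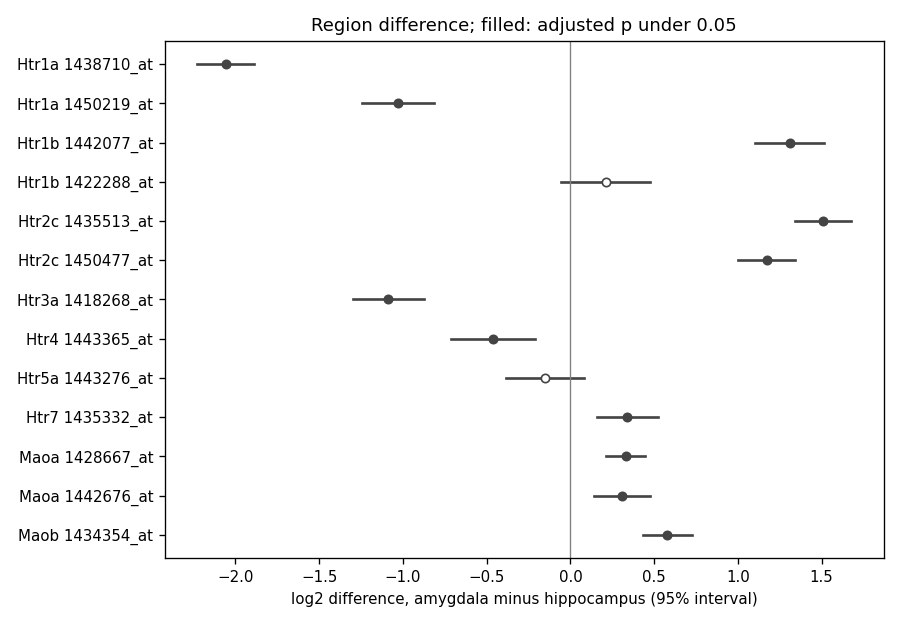
Log2 difference, amygdala minus hippocampus, for the 13 member probe sets, with 95% intervals from the limma fit of 24 arrays; filled points have an adjusted p under 0.05. Htr1a 1438710_at lies farthest to the left at -2.06 and Htr2c 1435513_at farthest to the right at 1.51, and the open points are Htr1b 1422288_at and Htr5a 1443276_at.

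The sequences just upstream of the annotated start are shown for the 3 genes with the largest region differences, since Htr1a and the pair Htr2c and Htr1b moved in opposite directions. Each is 150 bases long, 5′ to 3′ on the strand of the gene, from the RefSeq promoter table of build GRCm38.p6. Such windows were drawn for 5 of the 10 member genes. Windows on 1 chromosome were left out for the members, so this is not a count of what the promoter table holds. The table was searched on both strands for the TATA box TATAAA, the GC box GGGCGG, the short form TGACG of the cAMP response element and the E-box CACGTG, and capitals mark a match. Htr1a lies at chr13:105443543-105443692 on the plus strand, Htr1b at chr9:81633833-81633982 on the minus strand and Htr2c at chrX:146962314-146962463 on the plus strand.
Htr1a: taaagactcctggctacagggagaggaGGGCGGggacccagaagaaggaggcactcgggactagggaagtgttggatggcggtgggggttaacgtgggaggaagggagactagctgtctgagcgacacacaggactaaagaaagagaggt
Htr1b: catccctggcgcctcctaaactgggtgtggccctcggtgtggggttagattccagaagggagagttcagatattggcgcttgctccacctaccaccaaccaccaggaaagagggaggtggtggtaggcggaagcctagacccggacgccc
Htr2c: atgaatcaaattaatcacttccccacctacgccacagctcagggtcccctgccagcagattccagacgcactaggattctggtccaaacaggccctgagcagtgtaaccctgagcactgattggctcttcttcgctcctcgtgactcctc
The window of Htr1a held 1 GC box, a motif found in 25.69% of 23797 windows of this length, and the windows of Htr1b and Htr2c held none of the 4 motifs. TATA boxes were in 8.52% of all windows, TGACG in 12.64% and E-boxes in 4.10%. The GC content was 57.33% for Htr1a, 60.67% for Htr1b and 54% for Htr2c, with a median of 52.67% over all windows. No match says only that these letters are not in this window.

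Htr1a, the inhibitory receptor that lowers neuronal firing, had the largest difference of all members. Its brighter probe set, 1438710_at, stood at 218 to 273 units in the low freezing hippocampus (median 231) and at 215 to 246 in the high freezing hippocampus (median 231). In the amygdala it stood at 24.6 to 48.6 units in the low freezing arrays (median 41.9) and at 39.4 to 73.1 in the high freezing arrays (median 47.5). Every hippocampal array was above every amygdala array. The mean was 235 ± 15.7 against 45.4 ± 12.8 units (SD, n = 12 each), a log2 difference of -2.06 ± 0.08 (SE; limma adjusted p = 2.34e-18). The other probe set, 1450219_at, had a log2 difference of -1.03 ± 0.11, with 49.3 to 87.2 units in the hippocampus and 12.9 to 48.5 in the amygdala, again without overlap. Its mean was 24.05 units in the low and 28.0 in the high freezing amygdala. The former lies under 24.2 units, the lowest mean that passed the filter. It is counted among the 6 at least 2-fold and the 7 not overlapping. With the group means removed, both Htr1a probe sets had r = 0.29 with each other over 24 arrays.

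Htr3a, the channel subunit carried by a subset of interneurons, was lower in the amygdala too. It ranged from 57.4 to 113 units in the hippocampus (median 84.2) and from 16.7 to 45.7 in the amygdala (median 30.6), without overlap. The log2 difference was -1.09 ± 0.10 (SE; adjusted p = 4.41e-10 in limma, n = 12 each). Htr4, a receptor that raises cyclic AMP, overlapped between the regions: its probe set 1443365_at ranged from 103 to 148 units in the hippocampus and from 32.4 to 115 in the amygdala. Its log2 difference of -0.46 ± 0.12 was called (adjusted p = 0.00218). The lowest Htr4 value, 32.4 units, came from amygdala high 12. The next lowest amygdala value was 65.3 units, and leaving out single arrays moved the difference between -0.51 and -0.36.

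Markers of hippocampal cell types and of interneurons were set beside these genes. All 7 markers of dentate granule cells measured were lower in the amygdala (median log2 difference -2.37), and of 7 markers of CA pyramidal cells 6 were lower and 1 higher (median -2.03). Their summed level ran from 3144 to 4247 units in the hippocampus and from 1476 to 2083 in the amygdala for dentate granule cells, and from 3674 to 4888 against 1454 to 2305 for CA cells. The dimmest dentate markers in the amygdala were Tdo2 in the low and Lct in the high freezing arrays, with means of 6.38 and 8.31 units. Both lie under 24.2 units, the lowest mean that passed the filter, so the dentate count includes markers that passed through the hippocampus. Interneuron markers, 10 measured, were higher in 5 cases and lower in 4. Of 12491 genes 56.4% were called between the regions in either direction. Within a region the levels of Htr1a and of the dentate list showed no relation that passed: Pearson's r was -0.11 in the hippocampus (Spearman's rho -0.24, permutation p = 0.723 and 0.443) and 0.05 in the amygdala (rho 0.08, permutation p = 0.874 and 0.819), n = 12 each. For Htr3a and the interneuron list r was 0.12 (rho 0.13, permutation p = 0.713 and 0.683) and -0.32 (rho -0.28, permutation p = 0.313 and 0.377), with n = 12 arrays in each region. Without the 2 amygdala arrays farthest from the list's median the latter was -0.65 (permutation p = 0.0419). The part of cell composition in the regional differences was not tested.

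Htr2c, the phospholipase-coupled receptor found on neurons and, at high level, on the epithelium of the choroid plexus, was higher in the amygdala. At 1435513_at it ranged from 327 to 464 units in the low freezing hippocampus (median 354) and from 390.0 to 483 in the high freezing hippocampus (median 449). In the amygdala it ranged from 964 to 1389 units in the low (median 1105) and from 946 to 1526 in the high freezing arrays (median 1382). The log2 difference between regions was 1.51 ± 0.08 (SE; limma adjusted p = 1.46e-15, n = 12 each). The other probe set, 1450477_at, gave 1.17 ± 0.08, with 61.8 to 91.4 units in the hippocampus and 133 to 283 in the amygdala. At neither probe set did the regions overlap.

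Markers of choroid plexus and ependyma moved with Htr2c. All 10 were higher in the amygdala (median log2 difference 2.81). Their summed level was 1958 to 12055 units in the low and 2349 to 13658 in the high freezing hippocampus, and 17274 to 20872 and 14932 to 21926 in the low and high freezing amygdala. Ttr, the thyroxine carrier made by this epithelium, gave most of that sum, while the transcription factor Otx2 stood at only 0.39 units in 1 hippocampal array. Otx2 and Slc4a5 had medians of 7.32 and 5.73 units in the low and 13.2 and 10.3 in the high freezing hippocampus. Kcne2 had a hippocampal mean of 23.3. These lie under 24.2 units, the lowest mean that passed the filter, so these genes passed through the amygdala. They are counted among the 10 and enter the list mean used below. Across the 12 amygdala arrays the brighter Htr2c probe set and the mean log2 level of the list had Pearson's r = 0.88 (permutation p = 0.00023, adjusted p = 0.0023) and Spearman's rho = 0.91 (permutation p = 0.00017, adjusted p = 0.0017). Across the 12 hippocampal arrays r was 0.76 (permutation p = 0.00538, adjusted p = 0.0269) and rho 0.73 (permutation p = 0.00944, adjusted p = 0.0315). Adjustment ran over the 10 relations computed, 5 pairs of a gene and a list in each region. Without the 2 arrays farthest from the list's median r was 0.84 in the amygdala and 0.85 in the hippocampus. Within the freezing groups, n = 6 each, r was 0.90 for the low and 0.97 for the high freezing amygdala, and 0.90 and 0.43 for the low and high freezing hippocampus.

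The dimmer Htr2c probe set, examined after the first had been seen, showed no relation with the list that passed. With 12 arrays in each region this cannot show that there is none. Its Pearson's r was 0.42 in the amygdala (rho 0.49, permutation p = 0.174 and 0.109) and -0.04 in the hippocampus (rho -0.20, permutation p = 0.909 and 0.528), n = 12 each; without the 2 arrays farthest from the list's median r was 0.35 and 0.46. With the group means removed, both Htr2c probe sets had r = 0.51 with each other over 24 arrays. How much of the Htr2c signal comes from choroid plexus RNA was not tested.

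**Figure D3:**
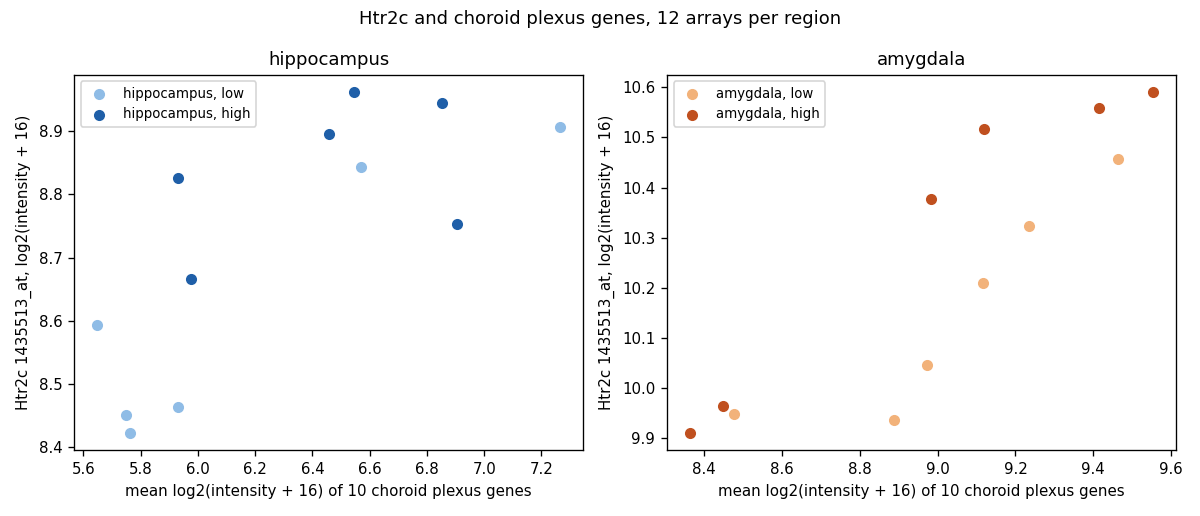
Htr2c at 1435513_at, as log2(intensity + 16), against the mean log2(intensity + 16) of 10 choroid plexus and ependyma genes, for 12 hippocampal arrays on the left and 12 amygdala arrays on the right; each point is an array, coloured by freezing label, and the axes of the panels differ. The points rise together in both regions, with r = 0.76 in the hippocampus and 0.88 in the amygdala, and the lists span 5.65 to 7.26 and 8.36 to 9.55.

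Htr1b, an inhibitory receptor that sits largely on axon terminals, was higher in the amygdala at one of its probe sets. At 1442077_at it stood at 74.8 to 122 units in the low freezing hippocampus (median 85.9) and at 67.3 to 101 in the high (median 92.3). In the amygdala it stood at 223 to 355 units in the low (median 275) and at 130.4 to 282 in the high freezing arrays (median 222). The amygdala arrays lay above all hippocampal ones, with a log2 difference of 1.31 ± 0.10 (SE; limma adjusted p = 4.82e-12, n = 12 each). The dimmer probe set, 1422288_at, ranged from 22.5 to 62.0 units in the hippocampus and from 21.6 to 84.9 in the amygdala, and its difference of 0.21 ± 0.13 did not pass (adjusted p = 0.182). Both probe sets had r = -0.03 with each other over 24 arrays once the group means were removed, so the size of the Htr1b difference rests on 1 probe set. Markers of the central amygdala and striatum, 8 measured, were all higher in the amygdala (median log2 difference 2.89). Of 12491 genes 56.4% were called between the regions in either direction. Their summed level was 5882 to 10937 units against 800.0 to 1018 in the hippocampus. The marker Isl1 had hippocampal means of 2.335 (low freezing) and 2.61 units (high freezing). These lie under 24.2 units, the lowest mean that passed the filter, so Isl1 passed through the amygdala.

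The other receptors differed less. Htr7, which raises cyclic AMP, ranged from 46.4 to 75.9 units in the hippocampus and from 55.5 to 114 in the amygdala at 1435332_at. The overlapping arrays gave a log2 difference of 0.34 ± 0.09 (SE; adjusted p = 0.00201 in limma). Htr5a, at 1443276_at, ranged from 41.8 to 93.6 units in the hippocampus and from 34.0 to 84.9 in the amygdala, and its difference of -0.15, with a 95% interval of -0.38 to 0.08, did not pass (adjusted p = 0.282). In the amygdala Htr5a had r = 0.64 with the list of CA pyramidal cell markers (permutation p = 0.0258, adjusted p = 0.0862) and rho = 0.73 (permutation p = 0.00867, adjusted p = 0.0315); without the 2 arrays farthest from the list's median r was 0.74. In the hippocampus r was -0.12 (rho -0.23, permutation p = 0.721 and 0.473, n = 12), and without the 2 arrays farthest from the list's median it was 0.39 (permutation p = 0.271, n = 10). The 3 probe sets below the filter were dim: in the hippocampus they ranged from 21.7 to 37.8 units for Htr4, from 2.02 to 20.9 for Htr5a and from 2.50 to 20.6 for Htr7. Fitted without the filter, the dim Htr4 probe set had a log2 difference of -0.33 (adjusted p = 0.0149), the same sign as its brighter partner, while those of Htr5a and Htr7 did not pass (adjusted p = 0.707 and 0.318).

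Both monoamine oxidases were higher in the amygdala. Maob ranged from 169 to 243 units in the hippocampus (median 202) and from 246 to 385 in the amygdala (median 294), just without overlap. Its log2 difference was 0.58 ± 0.07 (SE; limma adjusted p = 5.42e-08, n = 12 each). Maoa, which lies beside Maob on chromosome X with no annotated gene between them in the RefSeq table, ranged from 176 to 269 units in the hippocampus and from 223 to 305 in the amygdala at 1428667_at. Its difference was 0.33 ± 0.06 there (adjusted p = 1.51e-05) and 0.31 ± 0.08 at 1442676_at (adjusted p = 0.00246), with overlapping regions at both. With the group means removed, both Maoa probe sets had r = 0.02 with each other over 24 arrays. Of 8 astrocyte markers 5 were higher in the amygdala and 2 lower, beside 56.4% of 12491 genes called in either direction. Their summed level was 12843 to 15244 units in the hippocampus and 13303 to 16157 in the amygdala. Within a region Maob showed no relation with the astrocyte list that passed. Its r was 0.16 in the hippocampus (rho 0.38, permutation p = 0.613 and 0.217) and -0.37 in the amygdala (rho -0.22, permutation p = 0.235 and 0.499), n = 12 each.

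The genes whose variation within groups was most like that of the 3 members with the largest differences were found by Pearson's r over 24 arrays, after the mean of each group had been subtracted, among 12490 other genes. For Htr2c they were Car12 (r = 0.88), a carbonic anhydrase, Kcne2 (0.87), a potassium channel subunit of the choroid plexus list, and Sowahc (0.86). For Htr1b they were Bbs2 (0.80), a gene of the ciliary BBSome, Prkar2b (0.79), a regulatory subunit of protein kinase A, and Egr3 (0.79), an immediate early transcription factor. For Htr1a they were Ttll11 (0.74), Pdf (0.73) and Kcnc4 (0.71), the last a potassium channel gene. These values are the highest of many and share the same arrays, so they are a description.

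Of 46 other genes of the serotonin system, 32 were measured: 11 were higher and 13 lower in the amygdala, and the median log2 difference was -0.05 against 0.04 over 12491 genes, of which 56.4% were called. Among synthesis, storage and uptake genes 3 of 6 were higher, led by Ddc, the decarboxylase that makes serotonin and dopamine, at 340.4 ± 49.8 against 72.2 ± 11.5 units (SD, n = 12 each; 4.03-fold, limma adjusted p = 1.22e-18). The rate-limiting enzyme Tph2 and the serotonin transporter Slc6a4, which mark serotonin neurons, were below the filter, at no more than 19.4 and 15.7 units in any of 24 arrays. All 3 other monoamine breakdown genes measured, the aldehyde dehydrogenases Aldh2, Aldh1a1 and Aldh9a1, were higher in the amygdala. Of 21 genes for G proteins, effectors and receptor partners, 4 were higher and 12 lower. The adenylyl cyclase Adcy1 was 2.80-fold lower, and the phospholipase Plcb4 4.10-fold higher. Among other serotonin receptors 2 of 6 were measured. Htr5b stood lower in the amygdala, at 10.5 ± 8.52 against 63.4 ± 8.17 units (SD, n = 12 each). Htr1d stood higher, at 60.4 ± 17.01 against 17.5 ± 10.6 units (SD, n = 12 each). The dimmer region of each lies under 24.2 units, the lowest mean that passed the filter. Both thus passed through the region where they are bright, so no fold or p is given. The counts of 11 higher and 13 lower include both.

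**Figure D4:**
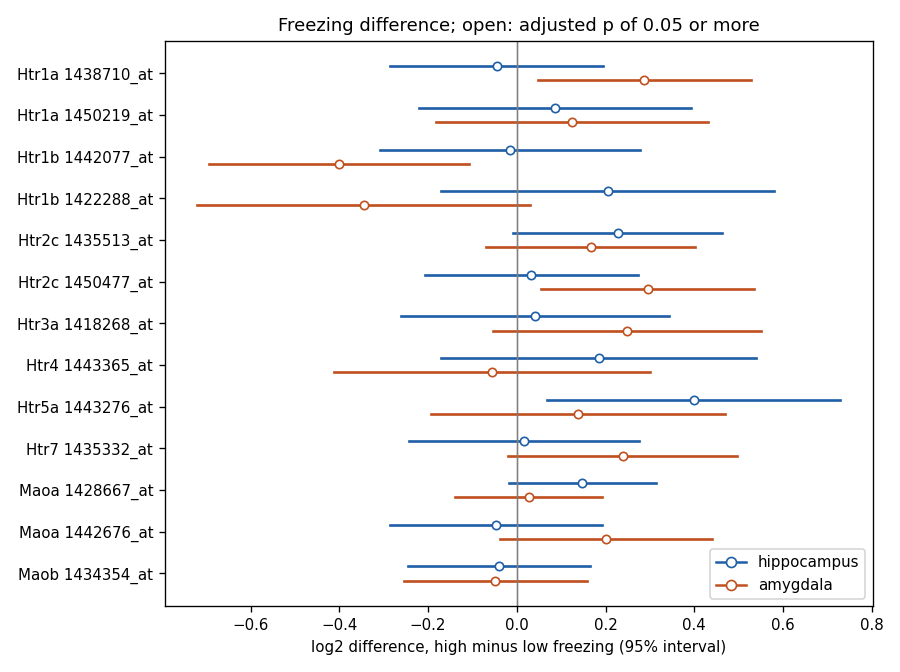
Log2 difference, high minus low freezing, for the 13 member probe sets in the hippocampus (blue) and the amygdala (orange), with 95% intervals from the limma fit; all points are open because no adjusted p was under 0.05. The values lie between -0.40, for Htr1b 1442077_at in the amygdala, and 0.40, for Htr5a in the hippocampus.

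No member differed between high and low freezing mice after adjustment in either region. In limma 0 of the 13 probe sets were called in the hippocampus and 0 in the amygdala, where 0.0518% and 0.0555% of all probe sets were called. At an unadjusted p under 0.05 there was 1 member in the hippocampus, beside 11.8% of all probe sets, and 3 in the amygdala, beside 10.8%. The median log2 difference of the members was 0.04 in the hippocampus and 0.14 in the amygdala, each with 9 of 13 above 0, against 0.01 in both over all probe sets kept.

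In the amygdala the largest difference was that of Htr1b, with a log2 value of -0.40 at 1442077_at (95% interval -0.69 to -0.11, unadjusted p = 0.00926 in limma, adjusted p = 0.288). The high freezing arrays had a mean of 217 ± 59.3 units and the low freezing ones 285 ± 44.3 (SD, n = 6 each), with overlap. At 1422288_at the value was -0.35, with an interval of -0.72 to 0.03. The list for central amygdala and striatum had 0 of 8 genes above 0 in this comparison, with a median of -0.28 and none called, at a summed level of 7353 to 10937 units in the low and 5882 to 10290.0 in the high freezing arrays. Their part in the Htr1b value was not tested. Htr1a had a log2 value of 0.29 at 1438710_at (interval 0.05 to 0.53, adjusted p = 0.359) and 0.12 at its other probe set. Htr2c had 0.30 at 1450477_at (interval 0.06 to 0.54, adjusted p = 0.344) and 0.17 at its brighter one, beside choroid plexus markers with 4 of 10 above 0 and a median of -0.01. Groups overlapped at all of these probe sets.

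In the hippocampus Htr5a had the largest difference, 0.40 on the log2 scale (interval 0.07 to 0.73, unadjusted p = 0.0198 in limma, adjusted p = 0.31). It stood at 62.8 to 93.6 units in the high (median 70.7) and at 41.8 to 78.1 in the low freezing arrays (median 46.7), so that 1 group reached into the other. Its dimmer probe set went the opposite way by -0.06 when fitted without the filter. Htr2c had a value of 0.23 at 1435513_at (interval -0.01 to 0.46, adjusted p = 0.44), beside choroid plexus markers with 10 of 10 above 0, a median of 0.20 and none called. For Maob the value was -0.04 (interval -0.24 to 0.17) in the hippocampus and -0.05 (-0.25 to 0.16) in the amygdala. For Maoa at 1428667_at the values were 0.15 (-0.02 to 0.31) and 0.03 (-0.14 to 0.19). At its other probe set, 1442676_at, they were -0.05 (-0.29 to 0.19) and 0.20 (-0.04 to 0.44), so that the larger Maoa value lay in a different region at each probe set.

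Whether the freezing difference itself differed between the regions was tested as an interaction. In limma 0 of the 13 member probe sets were called, as for all probe sets (0%). At an unadjusted p under 0.05 there was 1 member, beside 6.07% of all probe sets: Htr1b at 1422288_at, with -0.55 (interval -1.08 to -0.02, adjusted p = 0.822). At this probe set the region difference was 0.49 within the low freezing arrays (limma adjusted p = 0.0345) and -0.06 within the high freezing arrays (limma adjusted p = 0.821). Htr1b at 1442077_at had an interaction of -0.39 (interval -0.80 to 0.03), and the 95% interval of its region difference was 1.21 to 1.79 in the low and 0.82 to 1.41 in the high freezing arrays. Htr1a at 1438710_at, with 0.33 (interval -0.01 to 0.67), was -2.22 in the low and -1.89 in the high freezing arrays. For Htr2c at 1435513_at the region difference was 1.54 and 1.48. Within the low freezing arrays alone, Htr4 1443365_at, Htr7 1435332_at and Maoa 1442676_at were not called between regions (limma adjusted p = 0.117, 0.154 and 0.223). Within the high freezing arrays alone all of them were called (limma adjusted p = 0.00836, 0.00518 and 0.00385). Their interactions were not called (limma adjusted p = 0.923, 0.894 and 0.864).

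The order of the 4 group means therefore followed the region at most probe sets. Htr2c and Htr7 were highest in the high freezing amygdala, followed by the low freezing amygdala, the high and the low freezing hippocampus at every probe set kept, and the neighbours that share a region were not called apart. At 1442077_at Htr1b was highest in the low freezing amygdala, as was Maob, and no neighbour within a region was called apart. Htr1a was lowest in the low freezing amygdala at both probe sets, and Htr3a likewise.

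The region labels were set against markers of the tissue and its neighbours. Of 5 basolateral amygdala markers measured, 4 were lower in the amygdala arrays than in the hippocampal ones and 1 higher. Their summed level was 2554 to 3096 units in the hippocampus and 746 to 1605 in the amygdala. Genes this bright in the hippocampus cannot tell whether the amygdala was dissected. Markers of thalamus and hypothalamus, tissue that borders the amygdala, gave 5 of 8 genes higher and 1 lower. Their summed level was 948 to 3337 units in the amygdala and 419 to 528 in the hippocampus. The marker Trh had hippocampal means of 5.23 (low freezing) and 2.65 units (high freezing). These lie under 24.2 units, the lowest mean that passed the filter, so Trh passed through the amygdala. All 5 oligodendrocyte markers were higher, as were 4 of 6 microglia and 2 of 5 endothelial markers. Of 12491 genes 56.4% were called between the regions in either direction, so the microglia and endothelial counts say little about these cell types. Of the 7 genes of the serotonin neuron list 2 were measured, Gata2 and Maob, and both were higher. Maob is itself a member, so Gata2 is the only separate value of that list. The ratio of 3' to 5' control probe sets, a sign of RNA integrity, was 0.736 to 0.896 for Gapdh and 1.52 to 2.10 for actin over all arrays. The differences are between dissected samples, and the share of other tissue in them was not tested.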

How the data were processed

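Total RNA of 24 samples was hybridised to 1-colour Affymetrix mouse arrays, 6 per group. The deposited table holds 1 intensity per probe set and array, on a linear scale; the sources used here do not name the software behind it. Their equal trimmed mean, measured on the deposited table, is what scaling each array to 1 target gives. Regions and freezing labels came from the labels. The members and all gene lists were chosen with earlier results of these data known.

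The 64 control probe sets were left out of 45101, and so was the dimmest 40% by mean, which left 27022 with a lowest mean of 24.2 units. Probe sets were named from the platform annotation: 34958 carried 1 symbol, 932 several and 9211 none. Genes outside the members stand at their brightest probe set kept. One mean per group was fitted on log2(intensity + 16) with limma 3.58.1 in R 4.3.3 (intensity trend, 20 residual degrees of freedom, two-sided, Benjamini-Hochberg adjustment), after testing on simulated data. Correlations across arrays used 100000 permutations (two-sided), with Python 3.11.15 and scipy 1.17.1. Intensities carry no read depth, so the number of arrays limits the precision.

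Named were all member probe sets kept, up to 4 other pathway genes per comparison with the largest called differences, and the 3 genes most like each of 3 members. Marker genes, the aldehyde dehydrogenases, Htr1d, Tph2 and Slc6a4 were named after their values were seen. Alternatives were offsets of 1 and 64, quantile normalization, centring, no filter or a 60% filter, no trend, each region alone, the replicate number as a block, averaging the probe sets of each gene and leaving out each array.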

Additional observations from a re-analysis of the deposited data

How the results depend on the processing

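The region calls of the members held under all 32 alternatives run: 11 probe sets were called in each, except 12 of 16 without a filter, 9 of 9 with the dimmest 60% left out, and 12 of 14 without amygdala high 12, where the dim Htr4 probe set passed the filter. With the replicate block, which treats arrays of the same number in both regions as related, 11 were called. The data do not settle whether the numbers pair the arrays. Deviations of same-numbered arrays correlated between -0.08 and 0.08. Of 12 amygdala arrays, 5 correlated better with their own number than with any other hippocampal array of the same freezing label. Correlations near 0 cannot exclude that the same mice gave both regions. The freezing comparisons and the interaction gave 0 member calls under every alternative. All 578 recomputed single differences kept their sign and side of the threshold, but not their size. With an offset of 64 in place of 16, the region difference was -0.56 at Htr1a 1450219_at, -0.64 at Htr3a and 0.22 at Htr7, against -1.03, -1.09 and 0.34. The freezing values of Htr5a in the hippocampus and Htr1a in the amygdala were 0.24 and 0.16 with it, and the Htr1b interaction -0.30. Averaged over both of its probe sets, Htr1b differed by 0.76 between regions, against 1.31. The region values of Htr1b 1422288_at and Htr5a over both freezing labels, called in none of these alternatives, ranged from 0.13 to 0.27 and from -0.23 to -0.09. The background did move: of all probe sets, 0 to 33 were called for freezing in the hippocampus, lowest without low 5 and highest without low 2, against 14 as reported. In the amygdala it was 0 to 56, lowest with the amygdala arrays fitted alone and highest without low 6, against 15. The correlation of Htr2c with the choroid plexus list depends on the probe set: with the dimmer one, chosen after seeing the data, Pearson's r fell to 0.42 in the amygdala and turned to -0.0365 in the hippocampus, and the cause was not tested. Low signal at the dim probe sets of Htr4, Htr5a and Htr7 limits what can be seen of these genes.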
